A study of Saccharomyces cerevisiae with 21 samples.

Results

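The comparison described here set yeast exposed to 20.3 Gy of fast neutrons against unirradiated yeast on 3 arrays, chosen by their titles, with 2 scans of each. These 6 scans are 6 of the 21 deposited columns of the series, and the 3 arrays are 3 of its 12, which also cover gamma rays, carbon ions and thermal neutrons. Cells of the laboratory strain S288C of Saccharomyces cerevisiae were washed in cold saline, resuspended in 2 ml of it and, for the irradiated group, placed in cuvettes in an accelerator's neutron field. The treatment text of the labels gives a total of 21.4 Gy in 336 min at 0.064 Gy per min, of which 20.3 Gy came from fast neutrons. Control cells were kept cold in saline in tissue culture flasks without irradiation. The growth text gives 19 h for both groups and names heavy ions, not neutrons, for the exposure, so the labels differ among themselves on the time and the radiation. Both groups then recovered for 40 min in 50 ml of fresh rich medium (YPD) at 25 C before poly(A) RNA was taken. Vessel and irradiation changed together, and their parts in a ratio cannot be told apart.

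Each array compared irradiated RNA, labelled with Cy5, with control RNA, labelled with Cy3. The value of a gene is the log2 ratio of irradiated over control, so that 1 is a doubling and -1 a halving relative to control. The dyes were never swapped, so the dye effect of a gene is part of its ratio. The log base is not given in the sources used here and was taken as 2, and all sizes below rest on that. A gene's value on an array was the mean of the high-power and low-power scans, and the gene was tested against 0 over the 3 arrays with limma when all 3 held a value. Values are given as means ± SD (n = 3 arrays), with p adjusted by the Benjamini-Hochberg method over all genes tested and a threshold of 0.05. The files hold only ratios, so the strain and the state of the control cells could not be checked from levels.

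Fast neutrons are uncharged particles that ionise mainly through the recoil protons they set free, and such dense ionisation breaks DNA. Budding yeast answers DNA damage through the checkpoint kinases Mec1, Rad53 and Dun1, which lift the repression of ribonucleotide reductase genes and so raise the supply of deoxynucleotides. The same kinases can hold cells in the cycle. Ionising radiation also gives reactive oxygen, against which yeast raises thioredoxins, peroxiredoxins and a general stress programme.

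Of 5365 genes with a probe, 4936 were measured on all 3 arrays, and 630 of them (12.8%) passed the test. There were 304 higher genes (6.16%) and 326 lower genes (6.60%) in irradiated cells, and all 630 had the same sign on all 3 arrays. At least a 2-fold change was found for 39 of the higher and 77 of the lower genes. For comparison, 28.0% of all genes tested were above 0 on all 3 arrays and 27.3% were below 0 on all 3. A test on the mean of 3 arrays favours genes with the same sign on all, so the shared sign of the 630 is not separate support.

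The high-power scan of array 2 stood apart from the other 5 scans. It had a median log2 ratio of 0.134 and an SD of 0.765 across probes, while the other 5 scans had medians between -0.0158 and 0.0049 and SDs between 0.436 and 0.515. It correlated across probes with the low-power scan of the same array with r = 0.693, against r = 0.922 and r = 0.929 for the scan pairs of arrays 1 and 3. With the 4 scans of the other arrays its r lay between 0.263 and 0.376, and that of the low-power scan of array 2 between 0.530 and 0.685. In the high-power scan of array 2 the median log2 ratio also moved with the probe number. It was 0.50 for probes numbered from 2 and -0.79 for probes numbered from 8, a range of 1.29, while this range was 0.136 to 0.320 in the other 5 scans. The shares of calls also varied over the 8 first digits, from 2.92% (digit 8) to 10.3% (digit 2) for higher genes and from 3.39% (digit 1) to 10.9% (digit 6) for lower genes, so the lower calls did not keep the order of the medians. With array 2 taken from its low-power scan alone, 1391 of 4811 genes passed (28.9%), of which 674 were higher (14.0%) and 717 lower (14.9%). The shares still varied over the first digits then, from 10.9% (digit 3) to 18.8% (digit 1) for higher genes. For lower genes they ran from 7.65% (digit 1) to 20.3% (digit 5). With both scans kept but each scan centred within the first digit of the probe number, 1351 of 4936 genes passed (27.4%). These settings were chosen after the values were seen. Counts below are those found with both scans, and most are followed by the counts with array 2 taken from the low-power scan. The shares of all genes to set beside them are 6.16% higher and 6.60% lower with both scans. With array 2 from its low-power scan they are 14.0% and 14.9%, so counts rose over all genes as well. The number of genes tested in a list can also differ between the settings.

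**Figure D1:**
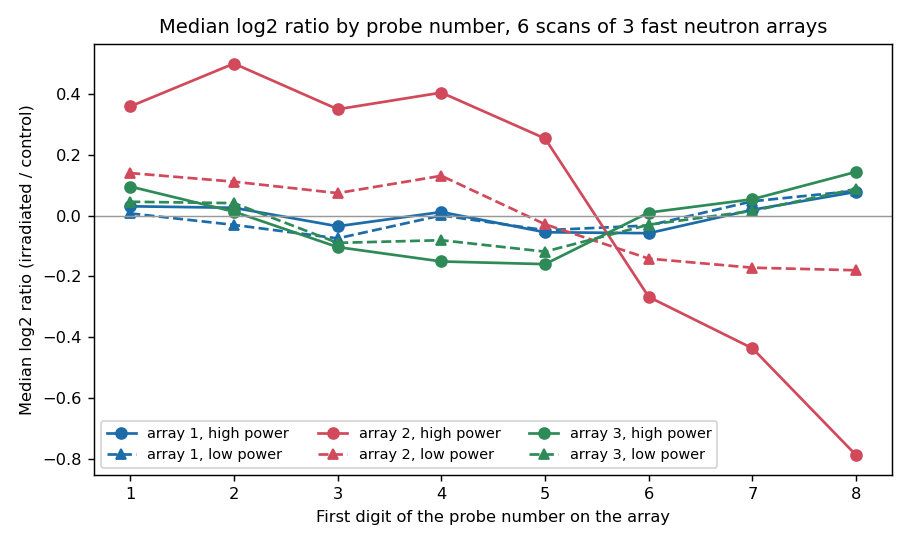
Median log2 ratio of irradiated over control (y) for probes grouped by the first digit of their number on the array (x, 864 probes each), with 1 line per scan. The high-power scan of array 2 runs between 0.50 and -0.79, while the other 5 scans stay between -0.18 and 0.14.

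The log2 ratio also moved with gene length. Coding lengths, from start to stop codon with introns included, were those of the RefSeq R64 table, in which 97.2% of 5360 matched genes have a length that is a multiple of 3. Across genes, Spearman's rho between log2 ratio and coding length was -0.43 in both scans of array 1, -0.15 and -0.28 in the high-power and low-power scans of array 2, and -0.23 and -0.25 in those of array 3. The 540 shortest genes (78 to 498 bases) had median log2 ratios of 0.34, 0.26 and 0.16 on arrays 1, 2 and 3, and the 535 longest (2673 to 6492 bases) had -0.24, -0.09 and -0.14. The median coding length was 742.5 bases for genes called higher, 1632 for genes called lower and 1245 for the rest. When the trend of each array on length was taken out before the fit, 382 of 4931 genes passed (7.75%), 167 higher (3.39%) and 215 lower (4.36%), and 330 of the 630 genes were among them. With array 2 from its low-power scan and the same adjustment, 1150 of 4806 passed (23.9%). This adjustment was chosen after the values were seen, and its counts are given below for most gene lists. The shares of all genes to set beside those counts are 3.39% higher and 4.36% lower, so counts fell over all genes as well. With array 2 also taken from its low-power scan they are 11.5% and 12.4%.

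**Figure D2:**
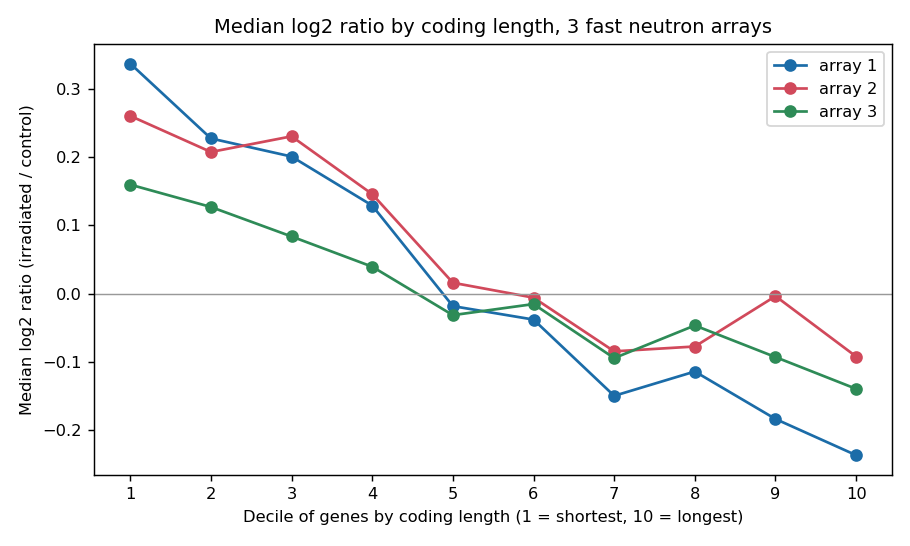
Median log2 ratio of irradiated over control (y) in each decile of genes by coding length (x), with 1 line per array. All 3 arrays are above 0 in the shortest decile (0.16 to 0.34) and below 0 in the longest (-0.24 to -0.09).

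Of the 4 highest genes in irradiated cells, 3 belong to the ribonucleotide reductase system, which makes deoxynucleotides for DNA synthesis and repair. RNR2 and RNR4, the small subunits of the enzyme, rose by a mean log2 of 2.22 ± 0.37 and 2.55 ± 0.26. RNR4 had log2 ratios of 2.66, 2.73 and 2.26 on the 3 arrays, and RNR2 had 2.36, 2.49 and 1.80. These values came from the low-power scan alone on array 2, so the deviant scan had no part in them. HUG1, a small protein that binds and inhibits the enzyme and is induced by DNA damage, had the highest mean of all genes tested, 2.86 ± 0.49, with 2.63, 3.42 and 2.52 on the arrays. Its array 2 value rests on the high-power scan alone, and without that array its log2 ratios were 2.63 and 2.52. RNR3, the large-subunit isoform made after DNA damage, rose as well, with 0.81, 1.51 and 0.74 on the arrays and a mean of 1.02 ± 0.42 (adjusted p = 0.020). RNR1, the large subunit of growing cells, had 0.46, 0.05 and 0.52 and did not pass (0.34 ± 0.26, adjusted p = 0.18). With array 2 from its low-power scan it did (0.47, adjusted p = 0.021).

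The regulators of the reductase did not pass with both scans. SML1, an inhibitor of the large subunit, averaged -0.17 ± 0.28 (adjusted p = 0.49), and DIF1, which brings the small subunits into the nucleus, -0.38 ± 0.21 (adjusted p = 0.13). WTM1, which anchors them there, averaged -0.45 ± 0.36, and its relative WTM2 -0.43 ± 0.37. RFX1, the repressor of the damage-induced reductase genes, lay on both sides of 0, at 0.25, -0.94 and 0.39. Of these 5 genes, WTM1 alone passed with array 2 from its low-power scan (-0.47, adjusted p = 0.040). Adjusted for coding length DIF1 was lower (-0.62, adjusted p = 0.050, just under the threshold before rounding). Of the 10 genes on the reductase list 4 were higher and 0 lower, against 6.16% and 6.60% of all genes. When adjusted for length 4 were higher and 1 lower, against 3.39% and 4.36% of all genes.

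Among 38 tested genes known to be induced by DNA damage, 14 were higher and 1 was lower (36.8% and 2.63%, against 6.16% and 6.60% of all genes). The list had a median log2 ratio of 0.34 against 0.003 over all genes. Its higher genes include HUG1, RNR2, RNR3 and RNR4, already counted on the reductase list, so the 2 lists are not separate. There were 19 higher and 2 lower with array 2 from its low-power scan. PLM2, a DNA-binding protein with a forkhead-associated domain, rose to log2 ratios of 1.58, 0.76 and 1.31. DDR2 and DDR48, stress genes first found by their DNA damage response, averaged 1.34 ± 0.47 and 1.01 ± 0.16. MAG1, the 3-methyladenine DNA glycosylase, and DDI1, its divergently transcribed neighbour that encodes a ubiquitin receptor, averaged 0.68 ± 0.29 and 0.82 ± 0.37. RAD54, a motor protein of recombinational repair, averaged 0.64 ± 0.25, with 0.40, 0.61 and 0.90 on the arrays. The glutathione transferase GTT2, the glutaredoxin GRX2, the ubiquitin conjugase UBC5 and FMP52 were also higher, at 0.72, 0.70, 0.55 and 1.09. The lower gene of the list was AGP1, a broad amino acid permease, at -1.59 ± 0.20. Adjusted for coding length, 10 genes of the list were higher and 2 lower, against 3.39% and 4.36% of all genes. MAG1 (0.59, adjusted p = 0.066), GTT2 (0.57, adjusted p = 0.060), GRX2 (0.48, adjusted p = 0.076) and UBC5 (0.37, adjusted p = 0.13) then no longer passed.

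The other members of the damage list did not pass with both scans. RNH203 (0.54), RFA1 (0.48), RAD16 (0.66), PHR1, the photolyase (0.40), and RAD23 (0.30) were higher with the low-power scan of array 2 alone, and RAD2, a nuclease of excision repair (-0.35), was lower. UBI4, the polyubiquitin gene (0.35), DDI2 (0.25), FRM2 (0.13), CDC9, the DNA ligase (0.09), and RAD5 (0.07) were above 0 without passing. POL1, of DNA polymerase alpha (-0.48), MSH6, of mismatch repair (-0.49), DIN7 (-0.30), RAD7 (-0.29), CRT10 (-0.26), TOS4 (-0.17) and YHB1 (-0.002) were below 0. RFA2 and RFA3, the smaller subunits of the single-strand binding protein, averaged -0.20 ± 0.88 and -0.03 ± 0.95, and each was below -1.1 on array 2 and above 0.27 on the other 2 arrays.

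**Figure D3:**
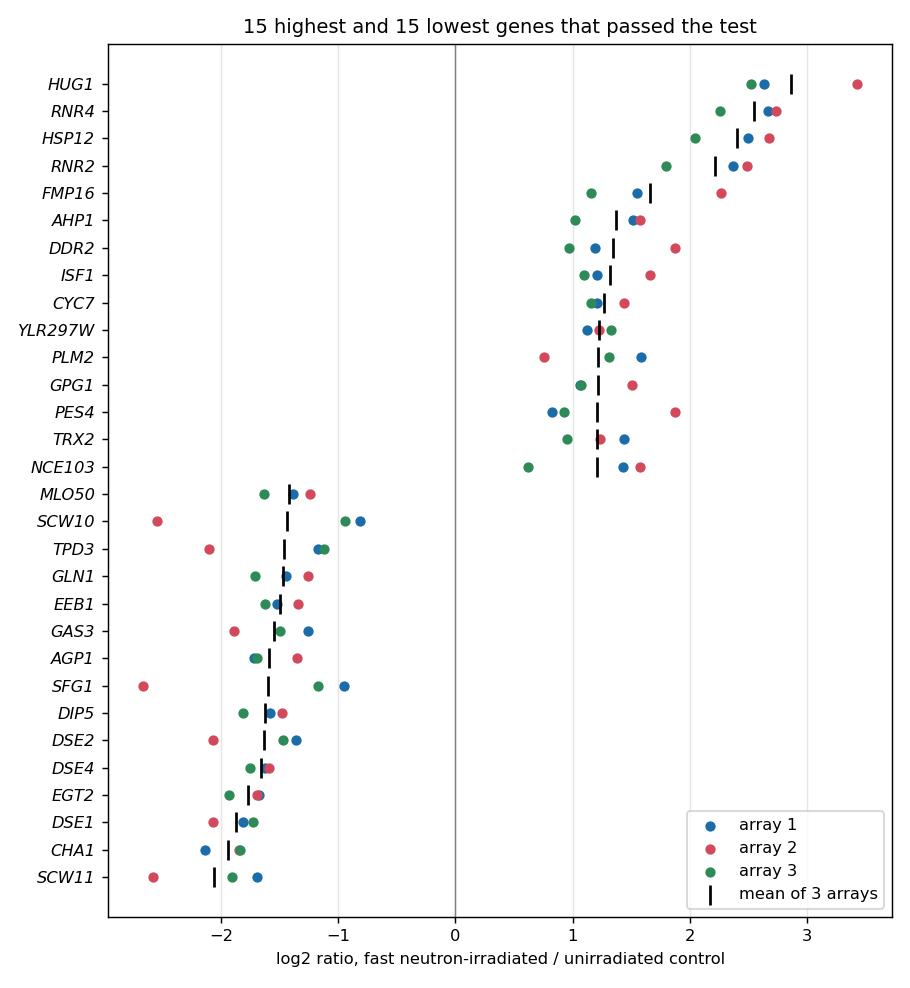
Log2 ratio of irradiated over control (x) for the 15 highest and 15 lowest genes that passed, with 1 point per array and a bar at the mean. HUG1, RNR4, HSP12 and RNR2 lie above 1.7 on every array, and array 2 is far from the other 2 arrays for SFG1, SCW10 and TPD3.

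None of the tested genes that sense and signal damage passed with both scans. Of 15 checkpoint genes 0 passed with limma, against 12.8% of all genes, a share at which 15 genes give few calls. The largest means were -0.47 ± 0.08 for PDS1, the securin that restrains anaphase, and 0.47 ± 1.02 for MRC1, a mediator at stalled forks. The arrays of MRC1 read -0.16, -0.08 and 1.64. With array 2 from its low-power scan PDS1 (-0.58, adjusted p = 0.011), RAD17 (-0.49, adjusted p = 0.019) and PTC2 (-0.52, adjusted p = 0.033) were lower. Without array 2, 1 checkpoint gene was higher and 3 were lower. With the low-power scan of array 2 and the length adjustment 2 were higher and 2 lower. RAD17 belongs to the clamp that marks damaged DNA and PTC2 is a phosphatase that acts on Rad53. RAD53, the effector kinase, read -0.09, 0.93 and -0.02, with only array 2 away from 0. RAD9, the adaptor that brings Rad53 to its activator, averaged -0.11 ± 0.20. RAD24 (0.08), DDC1 (0.17), MEC3 (0.20), LCD1 (0.33), DPB11 (0.40), TOF1 (-0.19), CSM3 (0.01), PPH3 (-0.07) and PSY2 (0.04) made up the rest, none with an adjusted p under 0.15. The kinase genes MEC1, TEL1, CHK1 and DUN1 were not among the genes tested.

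Repair and replication genes gave few calls in number, from small lists. Over all genes 6.16% were higher and 6.60% lower. The share higher was 5.26% in double-strand break repair and 11.1% in damage tolerance, with excision and mismatch repair between them. These shares were near or above that of all genes, while 0 genes of these lists were lower. RAD54 was the 1 higher gene among 19 of double-strand break repair, and the strand-annealing factor RAD52 averaged 0.39 ± 0.11 (adjusted p = 0.11). In excision and mismatch repair 2 of 25 genes were higher, MAG1 and RAD26 (0.64 ± 0.20), which couples repair to transcription. In damage tolerance 1 of 9 was higher, MMS2 (0.77 ± 0.28), a partner of the ubiquitin conjugase of the error-free branch. MMS2 no longer passed when adjusted for coding length. Of 41 replication genes 0 passed, and RFA1, the large subunit of the single-strand binding protein, averaged 0.48 ± 0.26 (adjusted p = 0.082). With array 2 from its low-power scan these 4 lists had 17, 24, 9 and 41 genes tested. Of these 4, 5, 2 and 2 were higher and 2, 3, 0 and 0 lower, against 14.0% and 14.9% of all genes.

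The general stress list shares DDR2 and DDR48 with the damage list. Of 62 tested, 22 were higher and 1 lower, with a median log2 ratio of 0.43, and with the low-power scan of array 2 alone 33 were higher and 4 lower. HSP12, a small membrane-protecting heat shock protein, lay between 2.04 and 2.67 on the arrays with a mean of 2.40 ± 0.33 (adjusted p = 0.0014). CYC7, the cytochrome c isoform of poorly aerated cells, had 1.20, 1.44 and 1.16. FMP16, a protein found in mitochondria, had 1.54, 2.27 and 1.16. CTT1, the cytosolic catalase, averaged 0.69 ± 0.28 and HSP26, a small heat shock protein, 0.80 ± 0.51. The lower gene was SSA4, a heat-induced Hsp70 chaperone, at -0.68 ± 0.37. HSP26 and SSA4 did not pass when adjusted for coding length, while 16 genes of the list were higher and 0 lower.

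Genes of peroxide and oxidant defence were more often higher than lower. Of 42 tested, 14 were higher and 2 lower, with a median of 0.31, and with array 2 from its low-power scan 19 were higher and 3 lower. The thiol peroxidase AHP1 had 1.51, 1.58 and 1.02, and the thioredoxin TRX2 had 1.43, 1.23 and 0.95. SOD1, the copper-zinc superoxide dismutase, averaged 1.07 ± 0.37, and GTT1, a glutathione transferase, 1.00 ± 0.24. MXR2, a methionine sulfoxide reductase of mitochondria, averaged 1.01 ± 0.29. ZWF1, which makes NADPH at the entry of the pentose phosphate pathway, was higher (0.70 ± 0.32), and GND1, the next NADPH-producing enzyme of that pathway, was lower (-0.87 ± 0.37). The other lower gene was the glutaredoxin GRX4 (-0.85 ± 0.43). Its genes have a median coding length of 720 bases, against 1242 over all genes, and adjusted for length 9 were higher and 2 lower.

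Proteasome genes were mostly above 0. Of 39 tested, 22 were above 0 on all 3 arrays and 2 below, against 28.0% and 27.3% of all genes. By the test 6 were higher and 0 lower, with a median log2 ratio of 0.30. There were 17 higher and 1 lower with array 2 from its low-power scan. SCL1 and PRE4, subunits of the catalytic core, averaged 0.86 ± 0.11 and 0.75 ± 0.18. BLM10, a large activator of the core, averaged 0.73 ± 0.40. Their median coding length was 867 bases, and adjusted for length 4 were higher and 0 lower, with a median of 0.27.

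Chaperone genes gave more lower than higher calls, from small counts. Of 39 cytosolic chaperone genes 2 were higher and 4 lower (5.13% and 10.3%, against 6.16% and 6.60% of all genes), with a median of -0.13. With array 2 from its low-power scan 4 of 38 were higher and 11 lower, against 14.0% and 14.9% of all genes. With both scans the lower genes were the Hsp70 proteins SSA2 (-0.92 ± 0.44), SSA4 and SSZ1 (-0.88 ± 0.18) and BTN2, a sorting factor for misfolded proteins (-0.58 ± 0.12). TAH1, a cofactor of Hsp90, was higher (0.84 ± 0.26), as was HSP26, and adjusted for coding length neither passed, with 0 higher and 2 lower genes on the list. Of 20 chaperones of mitochondria and endoplasmic reticulum 0 were higher and 3 lower (1 and 6 with array 2 from its low-power scan), among them the chaperonin HSP60 (-0.88 ± 0.23). SSA1 and SSB1 were not among the genes tested. Hsp70 genes share long stretches of sequence, so their probes may not separate them.

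SCW11, the lowest gene, and 4 more of the 6 lowest belong to daughter cell separation. These genes are switched on as daughter cells enter G1, and many encode enzymes that cut the septum. Of 25 tested genes of this list and of the M/G1 boundary 14 were lower and 0 higher, with a median log2 ratio of -0.82, and with array 2 from its low-power scan 18 were lower and 0 higher. SCW11, a cell wall glucanase, had -1.69, -2.58 and -1.90, the lowest mean of all genes tested (-2.06 ± 0.46, adjusted p = 0.0037). DSE1, a daughter-specific protein, had -1.81, -2.07 and -1.73. DSE4, a glucanase of the septum, had -1.63, -1.59 and -1.75, and EGT2, a wall protein needed for separation, -1.68, -1.69 and -1.93. The chitinase CTS1 averaged -0.99 ± 0.21, and AMN1, which shuts off mitotic exit in daughters, -1.38 ± 0.22. All of these lay below -0.78 on each of the 3 arrays. The M/G1 regulators gave smaller values: the Cdk inhibitor SIC1 averaged -0.40 ± 0.04 (adjusted p = 0.095), the cyclin CLN3 -0.72 ± 0.48 (adjusted p = 0.053) and ASH1, a repressor confined to daughters, -0.19 ± 0.18. SIC1 and CLN3 were lower with array 2 from its low-power scan (adjusted p = 0.021 and 0.017). SWI4, MCM6, CDC6, TEC1 and CYK3 lay between -0.15 and 0.12. Adjusted for coding length 14 were lower and 0 higher.

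Histone genes were lower too. Of 10 tested, 5 were lower and 0 higher, with a median of -0.66, and with array 2 from its low-power scan 7 were lower and 0 higher. Both histone H3 genes fell, HHT2 to -0.60, -1.12 and -1.10 and HHT1 to -0.60, -1.02 and -0.67. The H2A gene HTA1 averaged -0.67 ± 0.20, the H2B gene HTB2 -0.73 ± 0.08 and the variant H2A.Z gene HTZ1 -0.65 ± 0.33. The H4 genes did not pass and were uneven: HHF2 read -0.08, -2.17 and -0.65, and HHF1 read 0.03, -1.32 and -0.39. Linker histone HHO1 averaged -0.55 ± 0.24 (adjusted p = 0.056), HTB1 -0.18 ± 0.22 and the centromeric CSE4 -0.05 ± 0.13. The 2 genes of a core histone are near copies in their coding sequence, so that their values may be mixed. Histone genes are short (median 402 bases) and ran against the trend on length, and adjusted for it 6 were lower, with a median of -0.90. Yeast histone transcripts are polyadenylated and peak in S phase.

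In the other cell cycle lists the changes were fewer. Of 35 G1/S genes 1 was higher (PLM2) and 6 were lower, among them the G1 cyclin CLN2, with -0.77, -0.56 and -1.04, and the forkhead factor HCM1 (-0.59 ± 0.10). The other 4, GAS1, TOS1, SCW10 and BUD9, encode cell wall or cell surface proteins. There were 14 lower and 1 higher with array 2 from its low-power scan. Of 25 G2/M genes 1 was higher, SPO12, which promotes mitotic exit (1.06 ± 0.23), and 2 were lower, the mitotic cyclins CLB1 (-0.80 ± 0.50) and CLB4 (-0.74 ± 0.23). With the low-power scan of array 2 alone 2 were higher and 4 lower, and adjusted for coding length 1 was higher and 1 lower. CLB2 was not among the genes tested. Of 15 mating genes 0 passed with limma, against 12.8% of all genes, and 2 were higher and 1 lower with array 2 from its low-power scan. Most meiosis genes lacked a value on at least 1 array: 13 of 38 were tested and 1 was higher, SPO73 (0.58 ± 0.13).

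Genes of amino acid uptake and synthesis gave more lower than higher calls in 2 of 4 lists. Of 28 genes of nitrogen use and permeases 10 were lower and 0 higher, with a median log2 ratio of -0.45, and with array 2 from its low-power scan 15 were lower and 0 higher. CHA1, the serine and threonine deaminase, had -2.14, -1.84 and -1.84. DIP5, the glutamate and aspartate permease, had -1.58, -1.48 and -1.82, and AGP1 had -1.71, -1.35 and -1.69. GLN1 and GDH1, which fix ammonia into glutamine and glutamate, averaged -1.47 ± 0.23 and -1.16 ± 0.13. The permeases GNP1 and BAP3 averaged -1.12 ± 0.14 and -0.96 ± 0.22, and the peptide transporter PTR2 -0.93 ± 0.27. The length adjustment left 10 lower and 0 higher.

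Of 57 amino acid biosynthesis genes 20 were lower and 0 higher, with a median of -0.38. On all 3 arrays 42 were below 0, against 27.3% of all genes. There were 26 lower and 1 higher with array 2 from its low-power scan. The lysine pathway gave 6 of the 20: LYS9 (-1.33 ± 0.26), LYS4 (-1.14 ± 0.41), LYS20 (-1.03 ± 0.29), LYS12 (-0.91 ± 0.07), LYS2 (-0.78 ± 0.34) and LYS21 (-0.57 ± 0.12). The pathway of the branched amino acids gave ILV3 (-1.04 ± 0.20), ILV5 (-0.92 ± 0.26), ILV1 (-0.89 ± 0.27), LEU1 (-0.86 ± 0.16), LEU9 (-0.85 ± 0.22) and BAT1 (-0.62 ± 0.11). LYS9, the saccharopine reductase, had -1.11, -1.61 and -1.26 on the arrays. Adjusted for coding length 13 were lower and 0 higher, and LYS2 and LYS21 were not among them. The other 2 lists gave fewer calls. Of 27 genes of sulfur assimilation and methionine 1 was higher and 0 were lower (2 and 4 with array 2 from its low-power scan), and of 15 arginine genes 1 was higher and 1 lower (1 and 4).

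Purine and lipid synthesis genes also gave more lower than higher calls. Of 26 purine genes 8 were lower and 1 higher (10 and 1 with array 2 from its low-power scan). ADE17, of the last steps to IMP, had -1.27, -0.85 and -1.11, and IMD3, IMP dehydrogenase, averaged -1.06 ± 0.41. The higher gene was GCV3 (0.70 ± 0.28), a carrier protein of glycine cleavage. Of 32 genes of ergosterol and fatty acid synthesis 7 were lower and 1 higher (8 and 2 with array 2 from its low-power scan), among them FAS2, a subunit of fatty acid synthase (-1.16 ± 0.39), and ELO3, a fatty acid elongase (-1.37 ± 0.60). The higher gene was CYB5, cytochrome b5 (0.55 ± 0.13). OPI3, a methyltransferase of phosphatidylcholine synthesis, was the 1 gene of 16 of phospholipid synthesis that passed, with 0.97, 1.39 and 0.88, but with the low-power scan of array 2 alone 2 of that list were higher and 5 lower. After the length adjustment 5 purine genes were lower and 0 higher, and 5 of ergosterol and fatty acid synthesis were lower and 0 higher.

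Translation genes differed by kind and by length. Of 121 cytosolic ribosomal protein genes 15 were higher and 2 lower, with a median of 0.25, and with array 2 from its low-power scan 40 were higher and 4 lower. RPL20A had 0.83, 0.62 and 0.86 and RPL38 had 1.27, 0.69 and 0.70. The lower 2 were RPP2A, an acidic stalk protein (-0.90 ± 0.31), and RPL4B (-0.84 ± 0.54). The genes are short (median 771 bases, introns included). Adjusted for coding length 1 was higher (RPL20A, 0.71) and 1 lower (RPP2A, -1.18), with a median of 0.07. With that adjustment and the low-power scan of array 2 alone 22 were higher and 6 lower, with a median of 0.12. Introns count in the lengths used for this adjustment, and their part in the adjusted values was not tested. Many ribosomal proteins have 2 near-identical genes, whose values may be mixed. Of 69 mitochondrial ribosomal protein genes 3 were higher and 0 lower (12 and 3 with array 2 from its low-power scan). Adjusted for length 0 of them passed, and 2 were higher and 4 lower with both changes. Of 56 translation factor and tRNA synthetase genes, whose median length is 1574.5 bases, 8 were lower and 1 higher (15 and 3 with array 2 from its low-power scan). TEF4, a subunit of elongation factor 1B, had -1.16, -1.10 and -1.68, and EFT2, elongation factor 2, averaged -0.89 ± 0.16. After the length adjustment 4 of these were lower and 0 higher. Of 112 ribosome biogenesis genes 4 were higher, MAK16, IMP3, RPF1 and DIM1, and 4 lower, 3.57% each, below the 6.16% and 6.60% of all genes. With array 2 from its low-power scan 11 were higher and 14 lower, against 14.0% and 14.9% of all genes. Adjusted for coding length 1 was higher and 1 lower, against 3.39% and 4.36% of all genes.

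**Figure D4:**
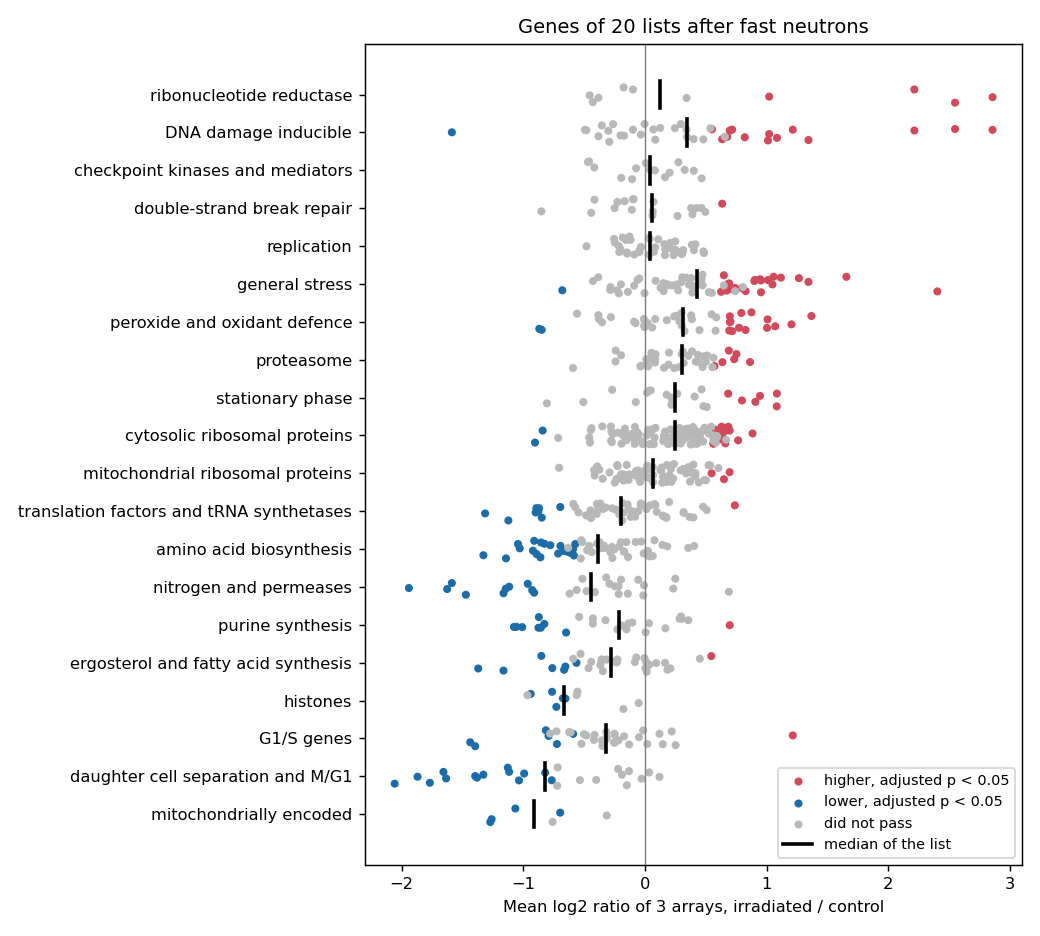
Mean log2 ratio of irradiated over control (x) for each tested gene of 20 lists (rows), red where higher and blue where lower by the test, with a black bar at the median of the list. The medians run from 0.43 for general stress to -0.82 for daughter cell separation and -0.91 for the 6 mitochondrially encoded genes.

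Mitochondrial transcripts were lower while nuclear genes of respiration were mixed. All 6 tested mitochondrially encoded genes were below 0 on all 3 arrays, against 27.3% of all genes. Of the 6 genes 4 passed (5 with array 2 from its low-power scan). ATP6, a subunit of the ATP synthase, had -1.21, -1.44 and -1.17, and COX3, of cytochrome c oxidase, had -1.64, -1.16 and -0.98. COX2 averaged -0.70 ± 0.30 and SCEI, a homing endonuclease, -1.06 ± 0.49. Mitochondrial transcripts of S. cerevisiae carry no poly(A) tail, and the labels describe RNA taken on oligo(dT), so these ratios are those of the part carried along in the preparation, whose share in the difference was not tested. Of 51 nuclear respiration genes 8 were higher and 3 lower (14 and 6 with array 2 from its low-power scan). Adjusted for coding length 2 were higher and 1 lower, and with both changes 7 were higher and 8 lower. With the length adjustment alone CYC7 and HAP4, the activator of respiration genes (0.68 ± 0.20), were the higher 2, and ATP1 (-0.85 ± 0.34) the lower gene. Of 12 retrograde signalling genes 3 were lower, the peroxisomal citrate synthase CIT2 with -1.32, -0.93 and -1.24, DLD3 (-1.06 ± 0.27) and aconitase ACO1 (-0.65 ± 0.33), and 0 were higher (5 and 0 with array 2 from its low-power scan, 2 and 0 when adjusted for coding length).

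Nutrient and wall genes gave smaller groups. Of 29 iron and copper genes 5 were higher and 2 lower (11 and 4 with array 2 from its low-power scan): TIS11, which degrades iron-dependent transcripts, had 1.11, 1.53 and 0.84, and the siderophore transporter SIT1 averaged 0.89 ± 0.32. The metallothionein genes CUP1-1 and CUP1-2, which are near-identical copies, averaged 0.93 and 0.95, and CRS5, another metallothionein, 0.90 ± 0.24, and these 3 short genes did not pass when adjusted for coding length. The metalloreductases FRE1 (-0.67 ± 0.14) and FRE7 (-0.61 ± 0.20) were lower, and did not pass when adjusted for coding length either. Of 25 phosphate genes 3 were higher and 1 lower (7 and 1 with array 2 from its low-power scan), and SPL2, which restrains the low-affinity phosphate carriers, averaged 0.93 ± 0.24. Of 22 stationary phase genes 6 were higher and 0 lower (9 and 2 with array 2 from its low-power scan), among them SPG4 with 1.02, 1.25 and 0.98. MTH1, a regulator of glucose transporter genes, was the 1 of 22 hexose transport genes that passed, at 1.04, 0.87 and 1.11. Of 37 cell wall genes 2 were higher, SED1 (0.96 ± 0.22) and SPI1 (1.05 ± 0.37), and 8 were lower, among them the glucanase EXG1 (-1.33 ± 0.23) and the glucanosyltransferases GAS1 (-0.81 ± 0.03) and GAS3 (-1.55 ± 0.32). With the low-power scan of array 2 alone 3 were higher and 11 lower. Both lower counts include MLP1 (-0.80 ± 0.19), which encodes a nuclear pore protein and not a wall protein. They also include GAS1, TOS1 and SCW10, already counted among the lower G1/S genes, so these 2 lists are not separate.

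Among the 15 highest and 15 lowest genes, 9 are on none of the lists above. PES4, related to poly(A) binding proteins, had 0.83, 1.87 and 0.93, its array 2 value from the high-power scan alone. NCE103, the carbonic anhydrase, had 1.43, 1.57 and 0.62. GPG1, a partner of the glucose-sensing G protein, averaged 1.21 ± 0.25, and ISF1 had 1.20, 1.66 and 1.09. YLR297W, with no assigned function, was even across arrays at 1.12, 1.22 and 1.33. On the lower side SFG1, a transcription factor of surface growth, had -0.95, -2.66 and -1.18, and TPD3, the scaffold of protein phosphatase 2A, had -1.17, -2.10 and -1.12. EEB1, which makes ethyl esters, had -1.52, -1.35 and -1.63, and MLO50 had -1.38, -1.24 and -1.63.

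How many genes passed depended on the scans and arrays used. The count was 35 with the high-power scans alone and 1323 with the low-power scans alone. It was 1259 without array 2, but 68 without array 1 and 62 without array 3, the fits in which array 2 is 1 of the 2 arrays left. All 630 genes had 1 sign on all 3 arrays, which fixes their direction when an array is left out. Of them 11 of the 304 higher and 23 of the 326 lower genes passed under every one of the 15 alternatives that tested them. RNR4, HSP12, RNR2, HUG1, SCW11, DSE1, EGT2, DSE4, CHA1 and DIP5 were among these. RNR4 and RNR2 were tested under 13 alternatives, not including the high-power scans alone. HUG1 was tested under 11, not including any with array 2 from its low-power scan alone.

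**Figure D5:**
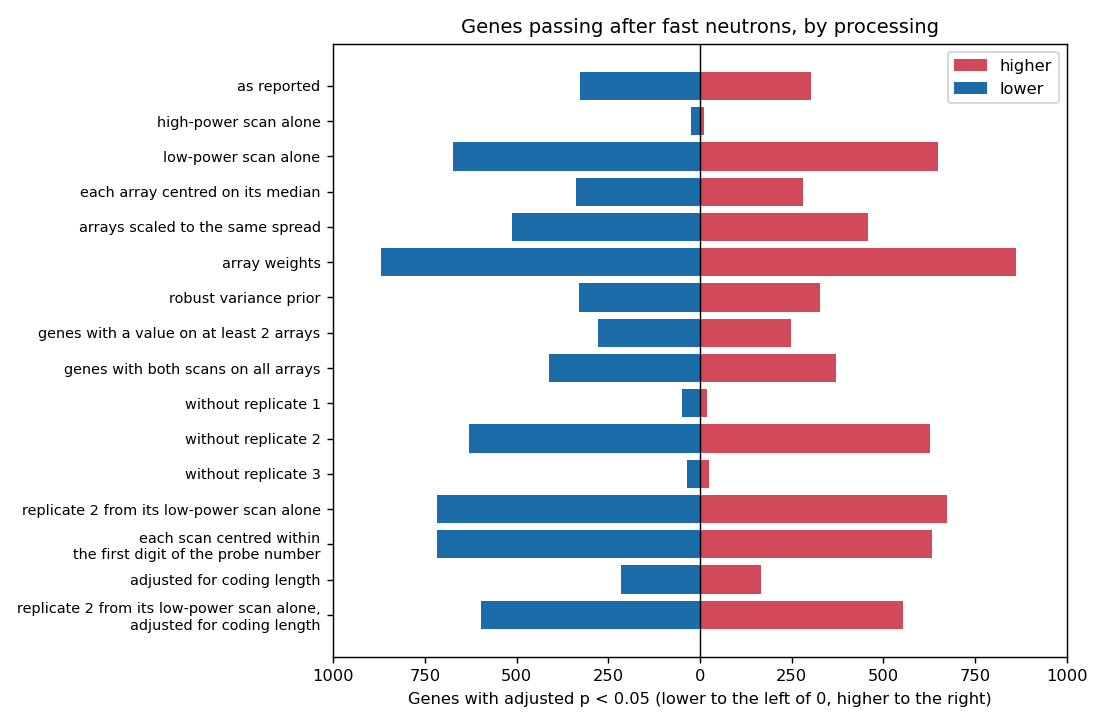
Number of genes that passed (x, higher to the right of 0 and lower to the left) as reported and under 15 alternatives (rows). The counts run from 35 genes with the high-power scans alone to 1732 with array weights.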

How the data were processed

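Poly(A) RNA was labelled and hybridised to 2-colour arrays, 3 of them for fast neutrons, with a high-power and a low-power scan of each array. The deposited values are log2 ratios made by the authors, for whom the labels state LOWESS normalisation over spots with flag value 0; values merged in GeneSpring, which the labels mention, were not used here. The log base and the direction (Cy5, irradiated, over Cy3, control) are not stated beside the values. The base was taken as 2 from the range of the series' other table and the direction from the channel labels. No genome build is named. The table had 6912 probes, of which 5513 carried 1 gene symbol and 1399 none, and 0 value columns were left unused. Scans were averaged per probe, and probes per gene (99 genes had more than 1). Genes with a value on all 3 arrays were tested against 0 with limma 3.58.1 in R 4.3.3 (lmFit and eBayes, two-sided, Benjamini-Hochberg adjusted p under 0.05). The labels describe biological samples taken independently without saying whether these were separate cultures, and the p-values measure the spread between these arrays, whose number limits the precision. The fit was tested on simulated data.

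The comparison, the gene lists and the alternatives were chosen with earlier results of these data known. Genes were named from the 15 highest and 15 lowest that passed with 1 sign on all arrays, up to 4 members of each list with the smallest p, every measured member of the reductase, damage, histone and checkpoint lists, and the 5 genes with the largest SD; further members were named after their values were seen. Adjustment for coding length took a loess of each array on log2 length out of the values. The processing alternatives cover scans, centring, scaling, array weights, the variance prior, missing values, coding length and leaving out each array.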

Additional observations from a re-analysis of the deposited data

Results flagged for a closer look

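For 7 of the 30 genes at the ends of the list, all 3 fast neutron arrays lay on the opposite side of 0 from all 3 gamma ray arrays (17 Gy) of the series. The 2 radiations were measured on different array types in separate tables, and the difference was not tested. These genes were picked for extreme values after fast neutrons, the share over all genes was not counted, and PES4 had no gamma ray mean. For all 7 the means after carbon ions and after thermal neutrons lay on the same side of 0 as after fast neutrons. They were 1.98 and 1.85 for HSP12. Nearest to 0 were 0.17 for YLR297W after thermal neutrons and -0.18 for AGP1 after carbon ions. HSP12 averaged 2.40 after fast neutrons and -0.22 after gamma rays. AHP1 averaged 1.37 after fast neutrons and -0.39 after gamma rays, and YLR297W 1.22 after fast neutrons and -1.03 after gamma rays. Of the lower genes, the permeases DIP5 and AGP1 averaged -1.63 and -1.59 after fast neutrons and 0.48 and 1.14 after gamma rays. SCW10 averaged -1.44 after fast neutrons and 0.24 after gamma rays, and MLO50 -1.42 after fast neutrons and 0.41 after gamma rays.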

How the results depend on the processing

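The 630 genes that passed (304 higher, 326 lower) became 35 (10 and 25) with the high-power scans alone and 1323 (650 and 673) with the low-power scans alone. Arrays scaled to the same spread gave 972 (459 and 513), and array weights 1732 (863 and 869). Leaving out 1 array gave between 62 and 1259 genes (20 to 628 higher, 36 to 631 lower). Settings chosen after seeing the data were the next 4. Array 2 from its low-power scan gave 1391 (674 and 717), centring within the first digit of the probe number 1351 (633 and 718), adjustment for coding length 382 (167 and 215), and the low-power scan of array 2 with that adjustment 1150 (553 and 597). Median centring, a robust variance prior, genes on at least 2 arrays and genes with both scans on all arrays stayed within 1.5 times of 630. Of the 30 named genes none reversed in any setting, though a gene with 1 sign on all arrays cannot reverse when an array is left out. Of them 6 of 26 tested no longer passed with the high-power scans alone, 3 without array 1, 4 without array 3 and 1 with the robust prior. Each ratio already pairs irradiated with control RNA on 1 array, so testing it against 0 keeps that pairing. No further pairing was made, and these arrays share no table with another group.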

Other observations

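The probes without a gene symbol were tested apart from the genes. Of 1399 such probes 417 had a value on all 3 arrays, and limma called 0 of them, with 55 at an unadjusted p under 0.05. With array 2 from its low-power scan 335 were tested, and 1 was higher and 3 lower. The genes with the largest SD over the arrays were FBP1, HAP5, CWC2, HRD1 and SPO22. FBP1, fructose-1,6-bisphosphatase, read -0.23, -0.41 and 2.31, and CWC2, a splicing factor, -0.19, -0.41 and 2.05. HRD1, a ubiquitin ligase of the endoplasmic reticulum, read 0.02, -0.37 and 2.14, and SPO22, a meiosis gene, 0.19, -0.50 and 2.09, so that 4 of the 5 stood out on array 3 alone. HAP5, of the Hap complex, read 0.52, -1.97 and 0.44. None of the 5 passed the test.

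Across genes, the mean log2 ratio after fast neutrons correlated with that after carbon ions with r = 0.60 (4722 genes), thermal neutrons with r = 0.51 (4846 genes) and gamma rays with r = 0.18 (4575 genes). Genes are not independent replicates, and the arrays share the dye orientation and the trend on coding length in part: Spearman's rho with coding length was -0.35, -0.26 and -0.15 on the carbon ion arrays, -0.19, -0.19 and -0.27 on the thermal neutron arrays, and 0.10, 0.07 and 0.16 on the gamma ray arrays.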
